A study of Mus musculus with 6 samples.

Results

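The chemokine receptor gene Ccr2 and the genes of its 4 CC chemokine ligands (Ccl2, Ccl7, Ccl8 and Ccl12) were examined in tumor-associated macrophages (TAMs) of a mouse melanoma. These 5 of the 23424 genes listed for each library were found by gene name, and all 5 passed the filter on low counts. YUMM1.7 cells, a mouse melanoma line, were injected into the skin of WT C57Bl/6J females that were 8 weeks old and received no treatment. On day 21, live CD45+ CD11b+ cells (lineage-negative by the study's methods) were sorted as F4/80high or F4/80low, where F4/80 is the macrophage surface protein encoded by Adgre1. Each library was bulk RNA from 10 pooled tumors of 1 of 3 independent experiments, which gave 3 F4/80high and 3 F4/80low libraries. The comparison asks whether TAMs with more and less surface F4/80 differ in the receptor and in its ligands.

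CCR2 is a G protein-coupled receptor of classical monocytes and of macrophages recently derived from them, which draws monocytes out of the bone marrow and into inflamed tissue and tumors. Its ligands, the monocyte chemoattractant proteins, are small secreted proteins made by macrophages, fibroblasts, endothelial cells and tumor cells, usually under inflammatory stimuli. Monocytes lose CCR2 as they mature into tissue macrophages, while many macrophages make the ligands.

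The ligand genes lie in one cluster on the forward strand of mouse chromosome 11 (GRCm38, GENCODE M21), Ccl2 from 82035571 to 82037453, Ccl7 from 82045712 to 82047525, Ccl12 from 82101845 to 82103400 and Ccl8 from 82115185 to 82116799. Ccr2 lies on the forward strand of chromosome 9 from 124101950 to 124113557. The family takes its name from 2 adjacent cysteines near the start of the mature protein, and the coding stretches around these cysteine codons are printed to show how alike the 4 counted transcripts are. They come from the GENCODE M21 transcripts, with both cysteine codons in capitals.
Ccl2: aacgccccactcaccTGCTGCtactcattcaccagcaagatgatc
Ccl7: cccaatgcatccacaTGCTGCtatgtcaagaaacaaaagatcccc
Ccl8: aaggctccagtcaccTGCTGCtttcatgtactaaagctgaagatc
Ccl12: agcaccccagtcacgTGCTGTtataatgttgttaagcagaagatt

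Over the 291 to 313 bases of coding sequence that could be aligned, the 4 ligands were 64.6% to 70.8% identical to each other (the coding sequence of Ccl2 has 447 bases, so part of it was not compared), and the longest run of bases that any pair shared was 17. Reads of coding sequence that are longer than such runs can be told apart between the ligands.

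The libraries held 16045281 to 43604373 counts. The study's principal component plot marks replicate 3 of each subset as batch 2 and the other libraries as batch 1, so batch 2 is also a single experiment and the 2 cannot be told apart. The batch 2 libraries had the fewest counts, and in them Lars2, Gm23935 and Gm15564 together held 16.1% and 17.1% of the counts, against at most 0.609% in batch 1. Adgre1 measured 273, 539 and 360 CPM in F4/80high replicates 1, 2 and 3, against 243, 327 and 183 CPM in the F4/80low ones. It was higher in F4/80high in 3 of 3 pairs of the same replicate number, although the subsets overlapped (log2 fold change 0.67, edgeR adjusted p = 0.664). Levels are counts per 1000000 counts of the TMM-normalized library size (CPM).

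All 4 ligand genes measured higher in F4/80high than in F4/80low TAMs within each of the 3 pairs, and Ccr2 measured lower in each of them. Of all 14645 genes tested, 16% were higher in F4/80high in 3 of 3 pairs and 15.9% were higher in F4/80low in 3 of 3. With library size alone in place of TMM the direction of each of the 15 within-pair differences was the same. No member's subsets were fully apart, against 2.3% of genes with all F4/80high libraries above all F4/80low libraries and 2.9% with the reverse. The spread over all 6 libraries was large, with a highest over lowest library of 9.14-fold for Ccr2 and 14.1- to 22.7-fold for the ligands. These folds hold the subset difference as well as the difference between experiments.

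Ccl7 encodes a ligand that also binds CCR1 and CCR3. In F4/80high TAMs it measured 214, 1111 and 262 CPM in replicates 1, 2 and 3, and in F4/80low TAMs 58.1, 308 and 48.8 CPM. The highest library of each subset was replicate 2, and F4/80low replicate 2 lay above F4/80high replicates 1 and 3. The means were 529 ± 504 and 138 ± 147 CPM (SD, n = 3 each). Within pairs 1, 2 and 3 the F4/80high level was 3.69, 3.60 and 5.36 times the F4/80low level, the narrowest spread of folds among the ligands on the log2 scale. The fitted log2 fold change was 2.04 (SE 0.68, unadjusted p = 0.0146) and did not pass the threshold (edgeR adjusted p = 0.529). With the replicate number as a block, which compares the subsets within each experiment, the value was 2.05 (SE 0.21, edgeR adjusted p = 0.0253) and Ccl7 rose. The log2 fold change with batch was 1.17 when F4/80high replicate 2 was left out and 3.04 when F4/80low replicate 2 was.

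Ccl12 encodes a mouse ligand of CCR2 with no direct human counterpart. Its levels in F4/80high replicates 1, 2 and 3 were 82.5, 272 and 89.9 CPM, against 13.7, 95.8 and 28.0 CPM in the F4/80low ones. As with Ccl7, replicate 2 was the highest of each subset and F4/80low replicate 2 lay above the lower F4/80high libraries. The means were 148 ± 108 and 45.8 ± 43.9 CPM (SD, n = 3 each), and the F4/80high level was 6.01, 2.84 and 3.22 times the F4/80low level in pairs 1, 2 and 3. The log2 fold change was 1.69 (SE 0.64, unadjusted p = 0.0271, edgeR adjusted p = 0.601). With the replicate block it was 1.92 (SE 0.26, edgeR adjusted p = 0.0299), and Ccl12 rose too. The value with batch was 1.03 without F4/80high replicate 2, and it was 1.22 and 2.80 when F4/80low replicates 1 and 2 were left out in turn.

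Ccl8 had the lowest level of the ligands per kb of gene length in 5 of 6 libraries. In mouse its product acts mainly on CCR8. It measured 65.3, 54.9 and 18.2 CPM in F4/80high, against 14.4, 37.0 and 3.42 CPM in F4/80low replicates 1, 2 and 3, and the last value rests on 30 counts. Replicate 3 was the lowest of each subset, whereas for Ccl12 replicate 1 was. For Ccl7 replicate 3 was the lowest in F4/80low TAMs alone. The means were 46.1 ± 24.8 and 18.3 ± 17.2 CPM (SD, n = 3 each), and the F4/80high level was 4.55, 1.48 and 5.31 times the F4/80low level in pairs 1, 2 and 3. The log2 fold change was 1.56 (SE 0.40, unadjusted p = 0.00360, edgeR adjusted p = 0.443). With the replicate block it was 1.68 (SE 0.38, edgeR adjusted p = 0.115). DESeq2 with the batch term gave 1.59 and called it (adjusted p = 0.0264).

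Ccl2 encodes the best known ligand, which recruits CCR2+ monocytes to tumors. In the study's secretion assay, sorted F4/80low TAMs released more CCL2 protein than F4/80high ones during overnight culture. That is the reverse of the direction of the RNA levels here, which come from cells fixed after sorting. Ccl2 RNA measured 249, 969 and 1999.9 CPM in F4/80high, against 142, 409 and 1682 CPM in F4/80low replicates 1, 2 and 3. Here replicate 3 was the highest of each subset and replicate 1 the lowest. The means were 1073 ± 880.1 and 744 ± 823 CPM (SD, n = 3 each). The F4/80high level was 1.75, 2.37 and 1.19 times the F4/80low level in pairs 1, 2 and 3, so pair 3 was nearly level. The log2 fold change was 0.85 (SE 0.53, unadjusted p = 0.143, edgeR adjusted p = 0.716) and with the replicate block 0.77 (SE 0.22, edgeR adjusted p = 0.229). Without F4/80high replicate 2, which leaves F4/80low replicate 2 unpaired, the value with batch was -0.0074, and without both libraries of replicate 2 the value with the block was 0.49. With batch, the value was 0.43 and 1.27 when F4/80low replicates 1 and 2 were left out in turn.

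For the receptor, Ccr2 measured 528, 342 and 1707 CPM in F4/80high, against 666, 532 and 3126 CPM in F4/80low replicates 1, 2 and 3. Replicate 3 was the highest and replicate 2 the lowest of each subset. The means were 859 ± 740.4 and 1442 ± 1461 CPM (SD, n = 3 each), and the F4/80low level was 1.26, 1.56 and 1.83 times the F4/80high level in pairs 1, 2 and 3. The log2 fold change was -0.60 (SE 0.25, unadjusted p = 0.0415, edgeR adjusted p = 0.639) and with the replicate block -0.62 (SE 0.18, edgeR adjusted p = 0.244). The receptor thus did not pass the threshold in either fit, and neither fitted difference reached 1 in size on the log2 scale. In bulk RNA, fewer cells of a type and less RNA per cell cannot be told apart. In the study's flow cytometry of CCR2 and the receptor CX3CR1, CCR2 protein was lower on skin macrophages with more F4/80. The TAM subsets differed in these receptors but did not follow the skin pattern, and had more co-expression of both.

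**Figure D1:**
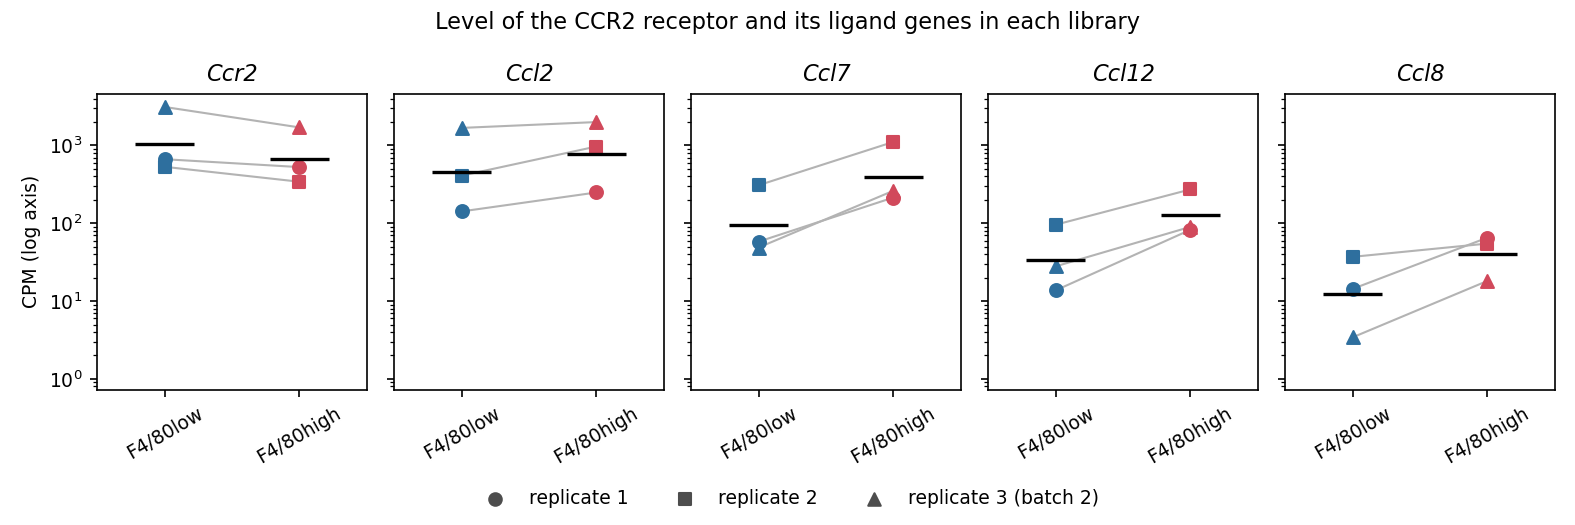
Level of each gene in each library in CPM on a log axis, with lines that join the libraries of the same replicate number and a bar at the geometric mean of each subset. The lines fall from F4/80low to F4/80high for Ccr2 and rise for the 4 ligands, while the points of the subsets overlap in every panel.

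Across the 14645 genes, edgeR with the batch term called 0 genes, or 0%, at an adjusted p below 0.05 with a log2 fold change above 1 in size, and thus 0 of the 5 members. At an unadjusted p under 0.05 it had 1113 genes, made up of 3.28% of those tested with the higher level in F4/80high and 4.32% with the lower, and Ccl7, Ccl8, Ccl12 and Ccr2 were among them. With the replicate block 76 genes were called, 0.232% of those tested being called as higher in F4/80high, and 2 members (Ccl7 and Ccl12) were called. DESeq2 with the batch term called 148 genes, 0.307% of those tested as higher in F4/80high, with Ccl8 as the only member. DESeq2 with the replicate block called 354 genes, 0.895% of those tested as higher in F4/80high, with Ccl7, Ccl8 and Ccl12 among them. Under that fit Ccl2 had an adjusted p of 0.0478 but a log2 fold change of 0.77, under the limit of 1.

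**Figure D2:**
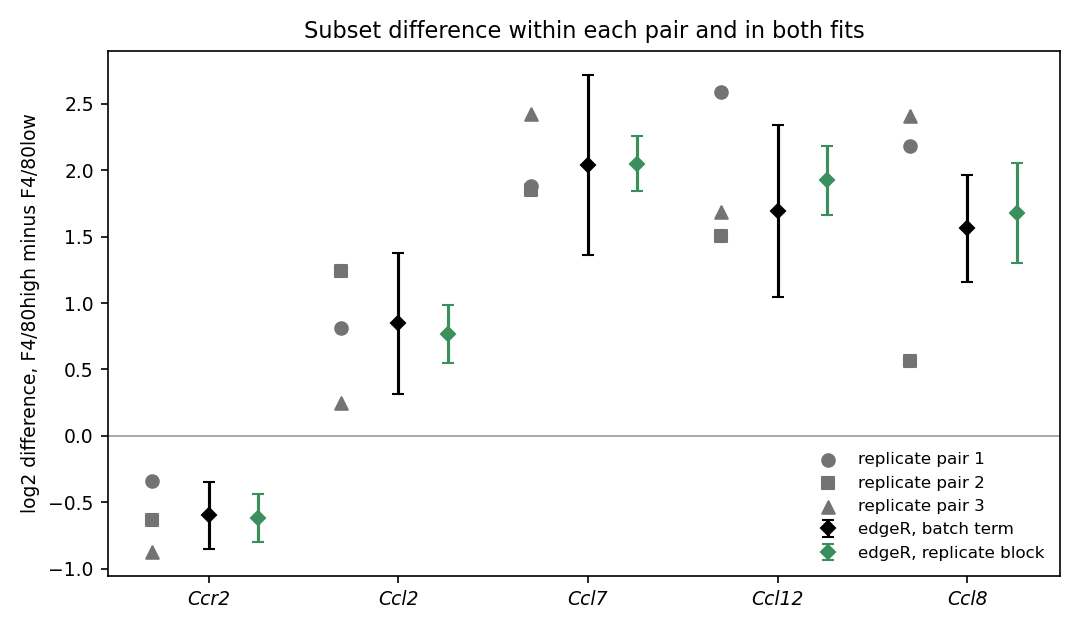
Log2 difference of F4/80high minus F4/80low for each gene, as the 3 pairs in gray, the edgeR fit with a batch term in black and the edgeR fit with the replicate block in green, with bars for the SE. The fits give like values while the bars with the block are shorter, from 0.53 to 0.22 for Ccl2 and from 0.68 to 0.21 for Ccl7.

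Levels of different genes were compared as CPM per kb of the gene length in the tables. In F4/80high TAMs the order was Ccl2 (943 ± 773 CPM per kb), Ccl7 (660.2 ± 629.6), Ccl12 (276 ± 200.3), Ccr2 (134 ± 116) and Ccl8 (90.3 ± 48.5, SD, n = 3). In F4/80low TAMs it was Ccl2 (654 ± 723 CPM per kb), Ccr2 (225 ± 228), Ccl7 (173 ± 184), Ccl12 (85.4 ± 81.7) and Ccl8 (35.8 ± 33.6, SD, n = 3). These orders come from means over experiments that differed widely. F4/80high replicates 1 and 2 ran from Ccl7 over Ccl2, Ccl12 and Ccl8 to Ccr2, and F4/80high replicate 3 from Ccl2 over Ccl7, Ccr2 and Ccl12 to Ccl8, so none had the order of the means, on the gene lengths in the tables. Of the F4/80low libraries, replicate 3 had it. Neighbors in each order of means differed by less than the larger of their SDs. Among the 14645 genes, Ccl2 was at the 97.6th to 99.9th percentile of CPM per kb in each library, and Ccl8 ranged from the 63.7th in F4/80low replicate 3 to the 97.7th in F4/80high replicate 1. The lengths used (6393 bases for Ccr2, 1138 for Ccl2, 801 for Ccl7, 537 for Ccl12 and 511 for Ccl8) merge transcripts. The coding transcripts of Ccr2 span 2265 to 5728 bases and that of Ccl2 813, so on those lengths both levels per kb would be higher.

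Summed per kb, the 4 ligands came to 9.30, 53.3 and 8.56 times the Ccr2 level in F4/80high replicates 1, 2 and 3, against 2.41, 12.0 and 3.27 times in the F4/80low ones. The ratio was higher in F4/80high in 3 of 3 pairs, by 3.56-fold on the geometric mean, which is 1.83 on the log2 scale. The subsets overlapped, and an unpaired test did not separate them (two-sided exact permutation test, p = 0.3, where 0.1 is the smallest p possible). Within pairs 1, 2 and 3 the log2 difference was 1.95, 2.16 and 1.39, with an SD of 0.40 around the mean of 1.83. A sign-flip test of the 3 pairs gave an exact p of 0.25, the smallest it can give. This ratio needs no library size. The log2 difference was 0.97 without F4/80high replicate 2 and 2.53 when F4/80low replicate 2 was left out instead.

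The make-up of the ligand sum differed mostly between experiments. Ccl2 was 28.5%, 29.9% and 76.8% of it in F4/80high replicates 1, 2 and 3, against 49.7%, 36.1% and 92.5% in the F4/80low ones. Ccl7 was 34.8%, 48.6% and 14.3% in F4/80high, against 28.9%, 38.7% and 3.82% in F4/80low TAMs. The Ccl7 over Ccl2 ratio per kb was 1.22, 1.63 and 0.186 in F4/80high, against 0.581, 1.07 and 0.0412 in F4/80low replicates 1, 2 and 3. It was higher in F4/80high within each pair, by 2.43-fold on the geometric mean (two-sided exact permutation p = 0.5, sign-flip p = 0.25). Which gene led depends on the length taken for Ccl2. With the 813 bases of its coding transcript, a choice made after seeing the data, the ratio was 0.874, 1.16 and 0.133 in the F4/80high libraries and 0.415, 0.765 and 0.0295 in the F4/80low ones, so Ccl7 exceeded Ccl2 in F4/80high replicate 2 alone. The fold between subsets does not depend on it.

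**Figure D3:**
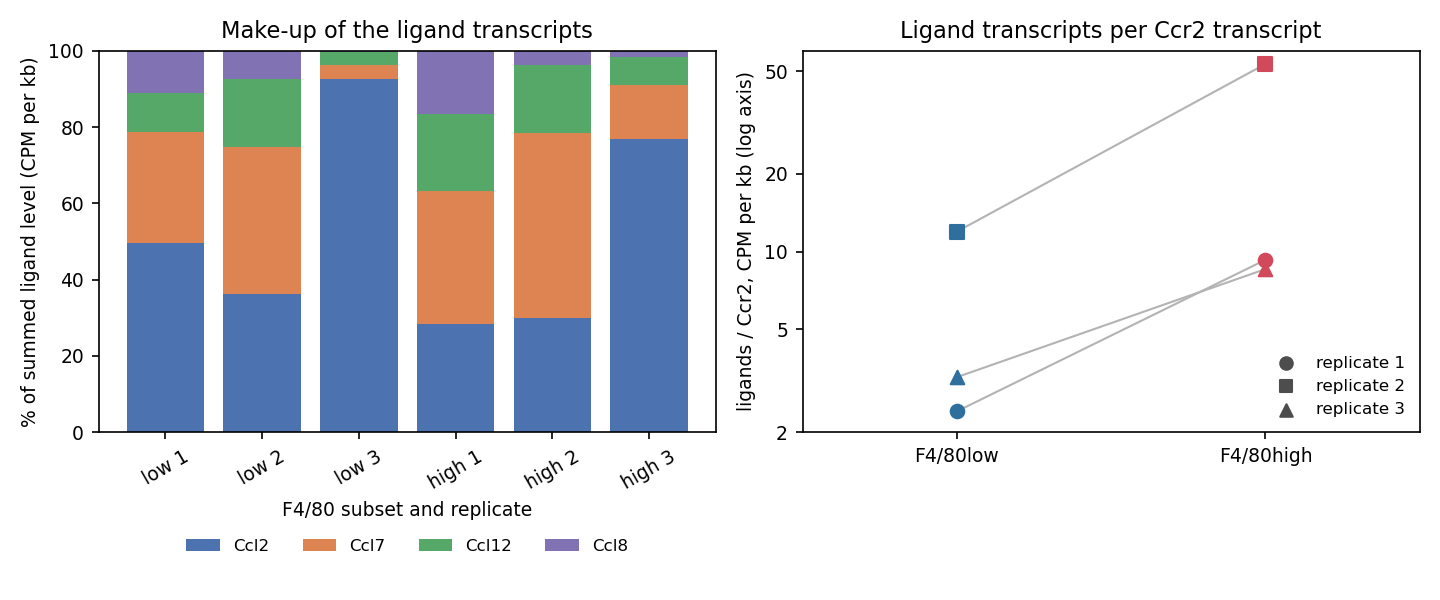
Share of each ligand in the summed ligand level in CPM per kb for each library (left), and that sum divided by the Ccr2 level on a log axis with lines joining libraries of the same replicate number (right). Ccl2 takes 76.8% and 92.5% in the replicate 3 libraries, and the ratio is higher in F4/80high in each of the 3 pairs.

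The members did not share a direction between batches. In the same edgeR fit, batch 2 was higher than batch 1 for Ccr2 by 2.18 on the log2 scale (SE 0.26, edgeR adjusted p = 1.92e-04) and for Ccl2 by 2.19 (SE 0.54, edgeR adjusted p = 0.00952). Ccl8 fell by 2.23 (SE 0.47, edgeR adjusted p = 0.00449). Ccl7 had a difference of -1.61 (SE 0.75, edgeR adjusted p = 0.116) and Ccl12 one of -0.98 (SE 0.70, edgeR adjusted p = 0.299). Passing the same threshold for batch was common, with 38% of the 14645 genes, and 23.1% of them had a larger absolute batch difference than Ccr2. Gene length moved with the batch. The median batch difference was -1.19 over the 669 genes under 1 kb, which include Ccl7, Ccl8 and Ccl12, and 0.62 over the 3511 genes of 6 kb or more, which include Ccr2. Ccl2 lies among the 4824 genes of 1 to 3 kb, whose median was -1.06. The part of length in the batch differences was not tested. The median subset difference ranged from -0.06 to 0.07 over the same classes. Batch 2 holds 1 library of each subset, so whether the subset difference varied between batches could hardly be tested (interaction term of edgeR, adjusted p = 1.00 for each member), and nothing about stability between batches can be read from it.

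**Figure D4:**
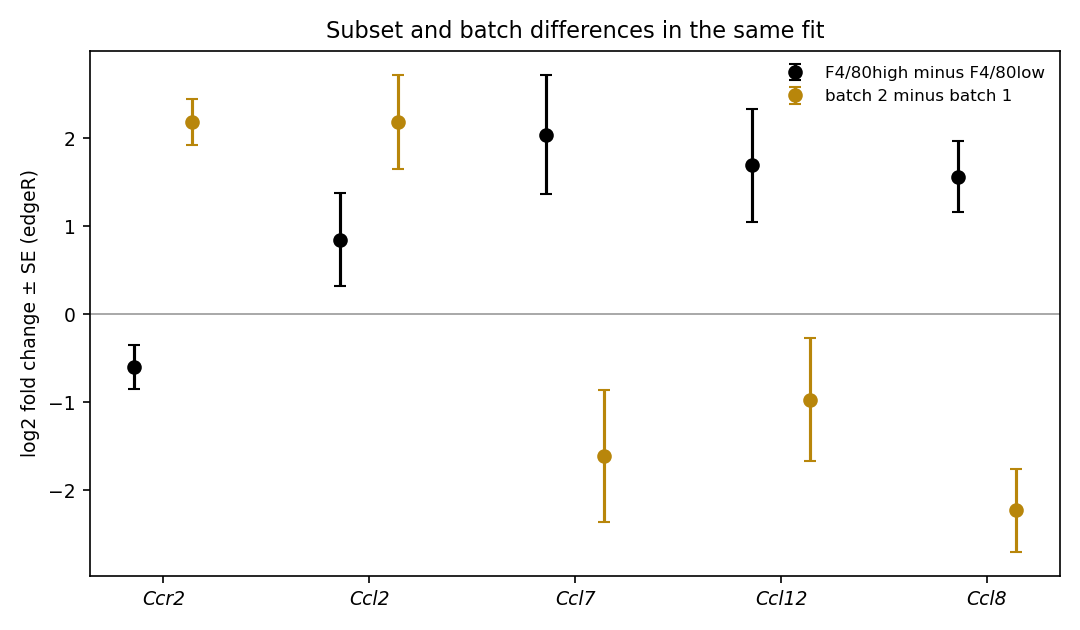
Log2 difference between subsets (black) and between batches (gold) for each gene from the edgeR fit with both terms, with bars for the SE. The batch difference is larger in size than the subset difference for Ccr2, Ccl2 and Ccl8, and it is positive for Ccr2 and Ccl2 and negative for the other 3 ligands.

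The bases just before the start sites are shown for Ccl12 and Ccl8, the ligands with a matched promoter entry. Their subset differences had the same direction as those of the other ligands. RefSeq promoter entries (GRCm38.p6) were matched for 3 of the 5 members (Ccr2, Ccl12 and Ccl8), and Ccl2 and Ccl7 are named only. Motifs are reported for Ccl12 and Ccl8 alone, and not for Ccr2. The 250 bases before each start were searched on both strands, and the 100 nearest to the start are printed, chr11:82101745-82101844 for Ccl12 and chr11:82115085-82115184 for Ccl8, both forward strand, with the TATA box motif TATAAA in capitals.
Ccl12: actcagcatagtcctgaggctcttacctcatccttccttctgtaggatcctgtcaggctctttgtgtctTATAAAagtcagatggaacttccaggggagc
Ccl8: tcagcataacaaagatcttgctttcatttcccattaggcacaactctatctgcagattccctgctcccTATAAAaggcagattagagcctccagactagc

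The motif TATAAA starts 31 bases before the start of Ccl12 and 32 before that of Ccl8, and 12.4% of 32851 promoters hold it in a window of the same length. The 2 windows were 62.0% identical over 234 aligned bases. Neither held a letter match to the AP-1 motif TGANTCA (6.75% of promoters), the STAT motif TTCNNNGAA (7.02%), the interferon-stimulated core GAAANNGAA (7.13%), the C/EBP core TTGCNNAA (9.56%) or the NF-kB motif (7.25%).

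Of 7 genes of other receptors and scavengers of these ligands, 6 were tested, with 2 higher and 4 lower in F4/80high, and 0 were called by edgeR with either term. The median log2 fold change was -0.37, beside 0.01 over all genes tested. Ccr3, the eotaxin receptor of eosinophils that also binds CCL7, measured 75.4, 37.1 and 79.7 CPM in F4/80high, against 139.6, 275 and 179 CPM in F4/80low (log2 fold change -1.65, edgeR adjusted p = 0.440). DESeq2 with the batch term gave Ccr3 an adjusted p of 0.00403. Its subsets did not overlap, and it is itself one of the eosinophil markers, which were all lower in F4/80high. Ccr8, the main receptor of mouse CCL8, had a log2 fold change of 0.61 and Ccrl2, an atypical receptor that binds chemerin, one of -0.50. Ackr1, a scavenger of red cells and vessels, had 0 counts in F4/80high libraries and at most 11 in an F4/80low one.

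Other CC chemokine genes gave a background for the ligands. Of 16 listed, 15 were in the tables and 13 were tested, with 6 higher and 7 lower in F4/80high and a median log2 fold change of -0.04. Of these, 2 had an unadjusted p under 0.05, 1 in each direction. Ccl4, an inflammatory chemokine of macrophages, had a log2 fold change of 0.85 (edgeR adjusted p = 0.461), with 318, 350.2 and 396 CPM in F4/80high, against 156, 217 and 216 CPM in F4/80low replicates 1, 2 and 3. Ccl3 and Ccl5, also inflammatory chemokines, had 0.50 and 0.36. Ccl6, an abundant myeloid chemokine, had -0.71 (edgeR adjusted p = 0.629). Ccl22, a CCR4 ligand of dendritic cells and macrophages, measured 40.5, 7.09 and 5.19 CPM in F4/80high, against 121, 22.1 and 14.1 CPM in F4/80low. It had a log2 fold change of -1.55 (edgeR adjusted p = 0.677) and fell by 1.56 with the replicate block (edgeR adjusted p = 0.0348), the only one of the 13 that did. Ccl20 reached at most 10 counts in a library. Ccl11, which lies between Ccl7 and Ccl12 from 82057823 to 82062955, stayed at 0.570 to 6.39 CPM and had a log2 fold change of -0.14.

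Downstream of the receptor, 22 genes of G protein, phosphoinositide 3-kinase, receptor kinase, arrestin and JAK-STAT signaling were tested. Of these, 5 were higher and 17 lower in F4/80high, with a median log2 fold change of -0.25, and 5 lower ones had an unadjusted p under 0.05. None was called by edgeR with either term. Pik3r6, a regulatory subunit of the G protein-coupled phosphoinositide 3-kinase, had -1.03 (edgeR adjusted p = 0.503), Jak2, a cytokine receptor kinase, -1.07 (edgeR adjusted p = 0.504) and Grk5, a receptor kinase, -0.98 (edgeR adjusted p = 0.593). Those with the smallest p among the higher genes were Arrb2, an arrestin that takes CCR2 off the surface, at 0.50, Gng2 at 0.41 and Gnb1 at 0.12, the last pair being G protein subunits. Among 20 genes upstream of the ligands, of the tumor necrosis factor, interleukin-1, Toll-like, NF-kB and interferon pathways, 5 were higher and 15 lower in F4/80high, with a median of -0.29. None of the 20 had an unadjusted p under 0.05. Stat2, an interferon signal transducer, had -0.55, Myd88, the adaptor of Toll-like receptors, -0.47 and the NF-kB subunit gene Rel -0.65, while the interferon receptor genes Ifnar1 and Ifnar2 had 0.35 and 0.24 and Tlr4, the endotoxin receptor, 0.09.

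Marker genes of several cell types moved with the subsets. Of 10 macrophage markers, 8 were higher in F4/80high (median log2 fold change 1.17), and 5 (Mertk, Mrc1, C1qa, C1qb and C1qc) rose with the replicate block. C1qa, a complement gene of mature macrophages, measured 971, 2467 and 543 CPM in F4/80high, against 199, 976 and 83.2 CPM in F4/80low replicates 1, 2 and 3. Its highest library in each subset was replicate 2, as for Ccl7 and Ccl12. The summed macrophage markers were 5724, 13956 and 5070.1 CPM in F4/80high, against 3360.3, 6328 and 2042 CPM in F4/80low. Of 9 monocyte markers, 8 were lower in F4/80high (median -1.07), with sums of 2171 to 2785 CPM against 2719.5 to 5582 CPM, and 4 (Chil3, Vcan, Hp and Ifitm6) fell with the replicate block. Ly6c2, the surface marker of classical monocytes, measured 374, 143 and 1229 CPM in F4/80high, against 278, 479 and 1861 CPM in F4/80low, and was highest in replicate 3 of each subset, as Ccr2 was.

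Among other cell types, all 10 neutrophil markers (summing to 753 to 2147 CPM in F4/80high and 1535 to 4908 CPM in F4/80low), all 8 eosinophil markers (93.8 to 187 against 271 to 621 CPM), all 6 mast cell and basophil markers (6.37 to 105 against 33.5 to 419 CPM) and 7 of 8 dendritic cell markers (75.9 to 316 against 142 to 518 CPM) were lower in F4/80high. All 7 T and NK cell markers tested were higher in the fit, with sums of 119 to 737 CPM against 52.8 to 328 CPM. None of them was higher in 3 of 3 pairs, and in pair 2 the sum was 224 CPM in F4/80high against 328 CPM in F4/80low. Fibroblasts also make CCR2 ligands, and 9 of their 10 markers were lower in F4/80high, with sums of 497 to 1576 CPM against 1159 to 1948 CPM. The lowest sum was in F4/80high replicate 2, the library with the highest Ccl7 and Ccl12. Replicate 3 of each subset had both the highest fibroblast sum and the highest Ccl2, but most of that sum came from Col1a2. This gene made up 1038 of 1576 CPM for the F4/80high library of replicate 3, and 1300 of 1948 CPM for its F4/80low partner. The markers Col1a1, Pdgfra and Fap were also highest in replicate 3 of each subset, whereas Col3a1, Lum, Pdgfrb and Postn were lowest there. A link between fibroblasts and Ccl2 thus cannot be read from the sums. Of 7 endothelial markers, 3 were higher and 4 lower (32.3 to 82.7 against 39.1 to 87.8 CPM), and of 6 B and plasma cell markers 4 were higher and 2 lower (10.9 to 139 against 6.62 to 128 CPM). Of 8 melanoma markers 3 were tested and all were higher, and of the defining ones Mlana reached at most 1 count and Pmel 0.432 to 1.82 CPM, while most of the sum of 13.2 to 168 CPM was Mitf, which macrophages also express. The part of these cell types in the differences of Ccr2 and its ligands was not tested.

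Genes of like pattern were sought among 10067 protein-coding genes whose mean log2 CPM was at least 2, by Pearson's r over the 6 libraries with the batch difference removed. Removing the batch leaves the replicate 3 libraries at equal distances from their mean, so few libraries set each r, and r is given as a description. For Ccr2 the nearest were Zfp622, Sdccag8, Gltscr1, D930015E06Rik and Sh2d3c, with r from 0.997 to 0.999, all lower in F4/80high in 3 of 3 pairs. For the mean of the 4 ligands they included Tmem256, Tmem119, Itm2b and Pmepa1, with r of 0.999 for each, all higher in F4/80high in 3 of 3 pairs. The values searched kept the subset difference, so these directions, the same as those of the members, follow largely from how the genes were chosen. Such values were common, with 191 genes at r of 0.95 or more for Ccr2 and 293 for the ligands.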

How the data were processed

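Poly-A RNA of F4/80high and F4/80low TAMs was sequenced in 6 libraries. The authors deposited the raw read count of each gene per library, with its length and biotype and no normalization, after alignment by their sequencing center's pipeline. Which aligner, counting tool, strand and annotation were used is not given in the sources used here. Depth was 16045281 to 43604373 counts, and 3 counts were 0.0688 to 0.187 CPM. In R 4.3.3, the 14645 genes that are protein-coding in GENCODE M21 and had at least 10 counts over the libraries were fitted with edgeR 4.0.16 (quasi-likelihood test, TMM, terms for batch and subset, Benjamini-Hochberg adjusted p). The limit for a call was an adjusted p below 0.05 with a log2 fold change above 1 in size. DESeq2 1.42.0, other normalizations and filters, a replicate block and leaving out libraries were alternatives. The batch was taken from the study's principal component plot.

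Sorted cells of both subsets came from each of 3 numbered experiments, and libraries of the same number deviated together from their subset means (r of 0.745, 0.729 and 0.907 over 10072 genes, beside 0.633 and 0.612 for the unmatched libraries of batch 1, so much of it follows the batch), and with the shared experiment the numbers were taken to pair the libraries. TMM factors were 0.601 to 1.34. The fits were tested on simulated data with a batch difference but no difference shared by libraries of the same replicate number within a batch. Such data cannot decide between the batch term and the replicate block. The members and gene lists were chosen with earlier results of these data known. Genes named beside the members are Adgre1, up to 3 of each pathway list with the smallest p in each direction, and the 5 genes of most like pattern, while Ccl11 and the marker genes with values were chosen after their values were seen. Some genes that this rule names are not reported here. Replicates are separate experiments, with tumors pooled within each.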

Additional observations from a re-analysis of the deposited data

How the results depend on the processing

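The 5 members kept their direction under 21 alternatives each, except that Ccl2 reversed to -0.0074 without F4/80high replicate 2, and Ccr2 passed the threshold under none. Between subsets 0 genes were called, against 148 with DESeq2 and batch, 76 with the replicate block, 354 with DESeq2 and the replicate block, 315, 35 and 22 with the replicate block without replicates 1, 2 and 3, and 0 to 57 without 1 library (57 without F4/80high replicate 1). Of the members, 0 were called, against 1, 2 and 3 under the first 3 of these, 2, 3 and 2 with the block without replicates 1, 2 and 3, and 0 without any 1 library. Ccl7 passed the threshold at 2.05 with the block, with edgeR and with DESeq2, and at 2.13, 2.11 and 1.87 without replicates 1, 2 and 3. Ccl12 passed at 1.92 and 1.93, and at 1.59, 2.11 and 2.04. Ccl8 passed at 1.59 with DESeq2 and batch, at 1.70 with DESeq2 and the block and at 2.25 with the block without replicate 2. The cause of these changes was not tested. The block changed no other call on a member. Without 1 library, log2 fold changes were -0.84 to -0.46 for Ccr2, -0.0074 to 1.27 for Ccl2, 1.17 to 3.04 for Ccl7, 1.23 to 2.19 for Ccl8 and 1.03 to 2.80 for Ccl12, and the log2 ligand over Ccr2 ratio differed by 0.97 to 2.53. Adjusted p over the alternatives ranged from 0.0945 to 1 for Ccr2, 0.0478 to 1 for Ccl2, 5.29e-16 to 1 for Ccl7, 4.17e-04 to 1 for Ccl8 and 1.10e-09 to 1 for Ccl12. DESeq2 with the replicate block, the block without 1 replicate number and the deposited biotype were chosen after seeing the data. With 3 experiments per subset, an exact test of 1 value cannot go below p = 0.1, and Ccl8 in F4/80low replicate 3 rests on 30 counts.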
